A study of Mus musculus with 10 samples.

Results

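Among 23998 distinct rearrangements of the mouse immunoglobulin kappa light chain locus (Igk), 188 were found in all 10 samples and 2098 were found in 1 sample only with a count of 2 or more. The former are called public and the latter private. A clonotype is a combination of V segment, J segment and the nucleotide sequence of the CDR3, the loop that spans the V-J join, with alleles of a segment merged. The 10 samples were small pre-B cells purified by flow cytometry from bone marrow of C57Bl6 mice aged 6 to 12 weeks. Per the labels, 5 samples were WT and 5 carried the genotype rsCBE, which the labels do not spell out and the design text writes with a delta before it. Another genotype named there was not analysed here. Whether the samples of a genotype came from separate animals is not stated, so p-values cover the spread between these samples. The rule used presence and counts, so sharing and abundance describe how the classes were made and are given without a test. It did not use V, J, reading frame, CDR3 length or genotype.

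As background, small pre-B cells cut and join 1 V segment to 1 J segment of Igk with the RAG recombinase. Before joining, the ends lose bases to nucleases, can gain short palindromic bases from hairpin opening, and can gain random bases from terminal transferase (TdT), which in mice is largely shut off by this stage. Joins that keep the reading frame can encode a light chain, and joins that lose it are transcribed but cannot. Joins that need few random steps are known to recur in different cells.

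The total count per sample ran from 3109 (WT replicate 4) to 24083 (rsCBE replicate 1). Private clonotypes numbered 48 in WT replicate 4 and 151 to 330 in the other samples, so private shares of WT replicate 4 rest on the fewest. Replicates 1 and 2 of each genotype were deposited as 1 library each and replicates 3 to 5 as parts a and b, which were added up. These are called batch 1 and batch 2, a division read from the table, since the labels name no batch. The batches differed widely in single clonotypes. By edgeR (quasi-likelihood, adjusted p under 0.05), 52 of 263 tested clonotypes (19.8%) differed between batches, among them 41 of the 155 tested public clonotypes, 29 higher and 12 lower in batch 2.

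The joins behind the contrast are shown first. The CDR3 part of the germline ends was taken from GENCODE M21 transcripts of the mouse build GRCm38, with V bases in lower case and J bases in capitals.

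Igkv8-16 germline V end: cagcagcatttacacattcctcc
Igkv9-120 germline V end: ctacaatatgctagttctcctcc
Igkv8-27 germline V end: catcaatacctctcctcg
J1 germline start: GTGGACG
J2 germline start: TGTACACG
J4 germline start: ATTCACG
J5 germline start: GCTCACG

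The most abundant public clonotypes, by mean share of counts over the 10 samples, were built from these ends with no other base. In the lines that follow, capitals mark the J part, and a base that both ends could supply is given to V.

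Igkv8-16 with J5, rank 1: cagcagcatttacacattccGCTCACG
Igkv8-16 with J1, rank 2: cagcagcatttacacattccGTGGACG
Igkv8-27 with J5, rank 3: catcaatacctctcctcgCTCACG
Igkv8-16 with J2, rank 4: cagcagcatttacacattccGTACACG
Igkv2-137 with J2, rank 5: atgcaacatctagaatatccGTACACG
Igkv9-120 with J1, rank 6: ctacaatatgctagttctccGTGGACG
Igkv8-16 with J1, rank 7: cagcagcatttacacattcctcGGACG
Igkv9-120 with J2, rank 8: ctacaatatgctagttctccGTACACG
Igkv16-104 with J1, rank 9: caacagcataatgaatacccgtGGACG
Igkv5-39 with J2, rank 10: caaaatggtcacagctttccGTACACG

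Of these 10, 9 have a CDR3 of 27 nucleotides and the Igkv8-27 join has 24. In 7 of them the V end lacks its last 3 bases, so that the V part stops at the same place before J1, J2 or J5. The Igkv8-27 join keeps the whole V end, and its join lies within a base that V and J share.

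For comparison, the private clonotype with the highest count is shown for each sample except rsCBE replicate 4, with a tie in rsCBE replicate 2. Here capitals mark bases that neither end accounts for, and a line without capitals has none.

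WT replicate 1, Igkv6-32 with J4, count 23: cagcaggattatagctctcctcccacg
WT replicate 2, Igkv8-24 with J2, count 12: cTGCAACATTATACCACTCCgtacacg
WT replicate 3, Igkv5-43 with J2, count 44: caacagagtaaTAACTGGCCTCAgtacacg
WT replicate 4, Igkv8-26 with J4, count 13: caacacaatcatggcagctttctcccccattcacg
WT replicate 5, Igkv3-1 with J1, count 8: cagcaaagtaggaaggttccttcGGcg
rsCBE replicate 1, Igkv9-120 with J2, count 11: ctacaatTTGCTAGTTTTCCgtacacg
rsCBE replicate 2, Igkv3-12 with J2, count 5: cagcacagtagggagcttcacg
rsCBE replicate 2, Igkv6-20 with J4, count 5: ggacagagttacagctatATattcacg
rsCBE replicate 3, Igkv1-135 with J5, count 14: tggcaaggtacacattttccctcacg
rsCBE replicate 5, Igkv1-88 with J1, count 10: ttacaaggtacacatcaACgtggacg

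These private joins differ in length from 22 to 35 nucleotides. The match to V stops at its earliest difference from the germline, so a change inside the V part puts all bases behind it in capitals, as in the WT replicate 2, WT replicate 3 and rsCBE replicate 1 joins. The private join with the most counts, that of WT replicate 3, was seen in part a (24 counts) and in part b (20 counts).

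Untemplated bases were rare in the public list and frequent in the private class. A CDR3 base was called untemplated where it lay outside the longest exact match to the V end and to the J start. Only 4 of 188 public clonotypes (2.13%, Wilson 95% interval 0.830 to 5.34%) had such a base, against 1151 of the 2072 private clonotypes with a germline match. The remaining 26 private clonotypes used J3 or 1 of the 3 V segments without a germline match. By replicate, the private share was 61.6, 55.0, 50.8, 54.3 and 60.7% in WT and 61.8, 55.0, 50.6, 56.0 and 50.8% in rsCBE. All 10 samples lay far above the public list, and the genotypes overlapped. The private mean was 55.7% ± 4.39 (SD, n = 10), 53.5 percentage points above the public list (two-sided exact sign-flip permutation p = 0.00195, the smallest that 10 samples allow). The public list is the same for all samples, so this test covers the spread of private values over samples only, here and below.

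The 4 public exceptions carried 1 or 2 such bases, shown in capitals.

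Igkv8-27 with J1, rank 84: catcaatacctctcctcgCggacg
Igkv8-16 with J1, rank 140: cagcagcatttacacattccACgtggacg
Igkv8-16 with J4, rank 165: cagcagcatttacacattccCattcacg
Igkv5-48 with J2, rank 183: caacaaagtaatagctggccaacGcacg

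Private clonotypes carried 1 or 2 untemplated bases in 715 cases (34.5%) and 3 or more in 436 (21.0%), while 0 public clonotypes had 3 or more, which allows up to 1.60% of the list. The match to V stops at its earliest difference, so the larger numbers can include germline bases that lie behind a change inside V. With 2 palindromic bases allowed at each end, 1 public (0.532%) and 835 private clonotypes (40.3%) still had an untemplated base. With 1 mismatch allowed in the V part, the numbers were 3 (1.60%) and 929 (44.8%). Both settings were chosen after seeing the data. A base from TdT, a palindromic base and a sequencing or PCR error cannot be told apart in these counts.

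The share of clonotypes with untemplated bases fell at each step of sharing. It was 83.3% among the 17875 clonotypes in 1 sample, 49.3% in 2 samples, 21.3% in 5, 5.56% in 8, 4.47% in 9 and 2.13% in all 10. In clonotypes seen with a count of 1 in 1 sample, which the private rule leaves out, it was 87.0%. These points come from the same samples and carry no test.

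**Figure D1:**
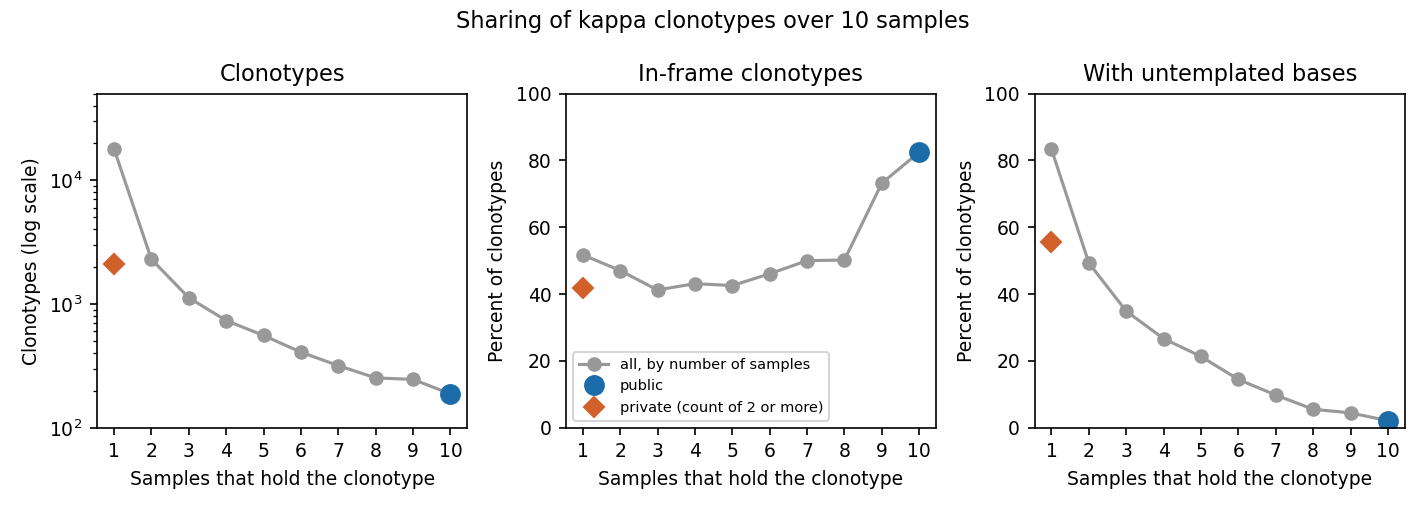
Number of clonotypes (log scale), percent in frame and percent with untemplated bases, against the number of samples that hold a clonotype. Blue marks the 188 public and orange the 2098 private clonotypes; the in-frame share stays between 41.2 and 51.7% up to 8 samples and reaches 73.2% at 9 and 82.4% at 10.

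Reading frame also differed between the classes. A clonotype was in frame where its CDR3 length was a multiple of 3 with no stop. Of the public clonotypes, 155 of 188 were in frame (82.4%, Wilson 95% interval 76.4 to 87.2%). The private share was 58.0, 42.4, 39.5, 52.1 and 39.1% in WT and 45.4, 43.4, 35.5, 39.7 and 32.7% in rsCBE, by replicate. Every sample lay below the public interval. The private mean was 42.8% ± 7.56 (SD, n = 10), 39.7 percentage points below the public list (two-sided exact sign-flip permutation p = 0.00195). With private counts of 5 or more the difference was -23.2 (exact permutation p = 0.0371). The difference was -35.2 percentage points in batch 1 and -42.7 in batch 2. All 33 public clonotypes out of frame had a length that is no multiple of 3. Among private clonotypes, 1196 (57.0%) had such a length and 22 (1.05%) had a stop in a length that is a multiple of 3.

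Among joins without untemplated bases the classes also differed in frame. Of public clonotypes without untemplated bases, 154 of 184 were in frame (83.7%), against 316 of 921 private ones (34.3%). Private clonotypes with untemplated bases were in frame in 552 of 1151 cases (48.0%). The in-frame public clonotypes also led the list by abundance, with 47 of its 50 highest ranks. The highest public clonotype out of frame was at rank 23. It is shown with the next 3 out of frame, with the J part in capitals.

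Igkv5-43 with J5, rank 23: caacagagtaacagctggcctcaTCACG
Igkv8-16 with J5, rank 26: cagcagcatttacacattcctcACG
Igkv1-135 with J1, rank 48: tggcaaggtacacattttcctGGACG
Igkv8-16 with J1, rank 54: cagcagcatttacacattcctGGACG

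The Igkv8-16 join with J5 lies within 3 bases shared by both ends, and both J1 joins within 1 shared base. Such shared bases can occur only in joins without untemplated bases, and were found in 48 of 184 public (26.1%) and 321 of 921 private joins of that kind (34.9%). A single shared base made up 24 of these public and 260 of these private joins. Those with 2 shared bases numbered 10 and 45, and those with 3 numbered 10 and 13. Over all clonotypes with a germline match, 25.5% of the public and 15.5% of the private ones had shared bases. Out-of-frame public clonotypes together took 1.95 to 6.21% of a sample's counts, and in-frame ones 26.0 to 37.3%.

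CDR3 length was far narrower in the public list. It ran from 24 to 33 nucleotides with an SD of 1.21, and in the private class from 9 to 48 with an SD of 3.85. A length of 27 nucleotides was held by 136 public (72.3%) and 342 private clonotypes (16.3%). In the private class 428 clonotypes (20.4%) were shorter than 24 nucleotides, and in the public list 0. The mean differed little, at 26.8 nucleotides in the public list and 26.4 ± 0.390 (SD, n = 10) in the private class. That difference of -0.379 nucleotides (two-sided exact sign-flip permutation p = 0.0117) was seen in 8 of 10 samples. With every sample thinned to 3109 counts it was -0.0219 (exact permutation p = 0.883). It also missed the threshold with private counts of 5 or more (-0.605, exact permutation p = 0.0957) and with clonotypes weighted by counts (-0.323, exact permutation p = 0.0820). Private clonotypes without untemplated bases averaged 24.5 nucleotides, and those with them 28.0.

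**Figure D2:**
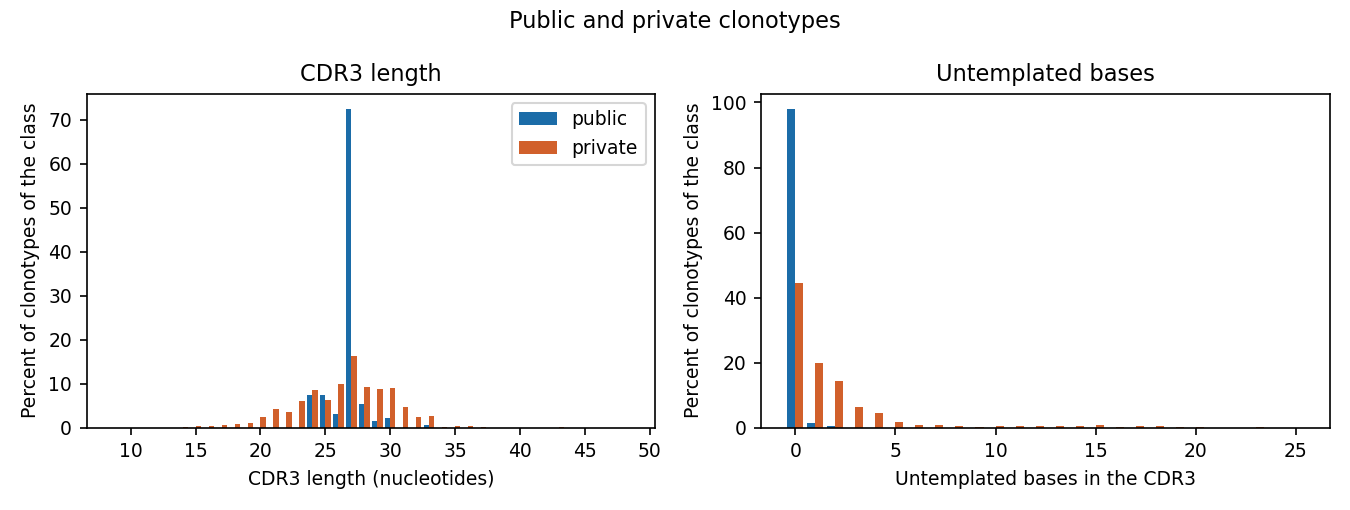
Percent of the 188 public (blue) and 2098 private (orange) clonotypes at each CDR3 length in nucleotides, and percent of the 188 public and 2072 matched private clonotypes at each number of untemplated bases. The public list peaks at 27 nucleotides with 72.3% of its clonotypes and at 0 untemplated bases.

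Germline bases missing from each end were compared only among joins without untemplated bases (184 public and 921 private), since in the others the match to V stops at its earliest difference and bases behind a single change would count as missing. A base that V and J share was counted to both ends. The V end lacked 2.22 bases on average in the public list (SD 1.47 over clonotypes) and 3.59 in the private class (SD 2.88). The J start lacked 0.815 (SD 0.952) and 2.22 bases (SD 2.02). A V end short of 3 bases with an intact J start made up 61 public (33.2%) and 17 private joins (1.85%). With 1 base missing from J as well, the numbers were 31 (16.8%) and 18 (1.95%). More than 6 V bases were missing in 1 public and 142 private joins (15.4%). The choice of these joins was made after seeing the data, and the values carry no test.

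**Figure D3:**
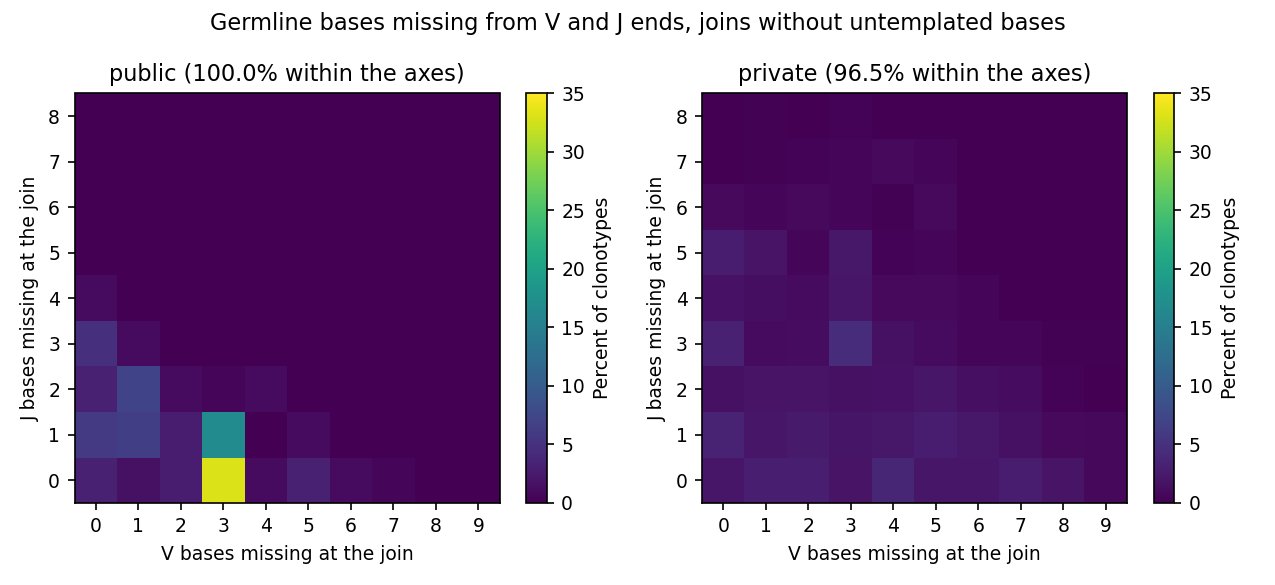
Percent of joins by the number of germline bases missing from the V end (horizontal) and the J start (vertical), for the 184 public and 921 private clonotypes without untemplated bases. The public list is concentrated where V lacks 3 bases and J lacks 0 (33.2%) or 1 (16.8%), and the private class is spread over the map.

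J usage also set the classes apart, each clonotype counted once. J1 is the J segment nearest to the V segments, and J5, the last one, is annotated at 70723886 to 70723927 of chromosome 6 (GRCm38, forward strand). The public list used J1 in 56 clonotypes (29.8%), J2 in 42 (22.3%), J4 in 24 (12.8%) and J5 in 66 (35.1%). It held 0 with J3, and the private class held 9. The private J4 share was 20.6, 25.0, 17.9, 31.3 and 21.9% in WT and 20.3, 25.1, 19.1, 18.1 and 24.3% in rsCBE. All 10 samples were above the public J4 share, by 9.57 percentage points on average (exact sign-flip permutation p adjusted over J1, J2, J4 and J5 = 0.00391). With private counts of 5 or more that difference was 6.64 and did not pass (adjusted exact permutation p = 0.189). It was 5.98 with public clonotypes in 9 or more samples and 5.84 with the list set over the 9 samples other than WT replicate 4, and passed in both. The private J1 share averaged 22.9% ± 5.02 (SD, n = 10), a difference of -6.86 percentage points that was negative in 10 of 10 samples (adjusted exact permutation p = 0.00391). With private counts of 5 or more it was -11.8 and missed the threshold (adjusted exact permutation p = 0.0547), and with clonotypes weighted by counts it was -10.4 and passed. This mean mixes the genotypes. The differences averaged -3.50 in WT (-8.95 to -0.375) and -10.2 in rsCBE (-14.8 to -5.96). The WT private mean of 26.3% lies within the public list's own Wilson 95% interval of 23.7 to 36.7%. The J4 mean of 22.3% ± 4.14 lies outside the interval of 8.73 to 18.3%. J2 averaged 25.5% ± 4.81, a difference of 3.14 percentage points that did not pass (adjusted exact permutation p = 0.0664). It passed under 3 of 8 other settings, among them public clonotypes in 9 or more samples (6.35, adjusted exact permutation p = 0.00521), and without WT replicate 4 (3.89, adjusted exact permutation p = 0.0312) or rsCBE replicate 2 (3.71, adjusted exact permutation p = 0.0430). With part a only it was -0.783.

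The private J5 share differed by genotype. The private J5 share was 16.0, 19.0, 21.6, 27.1 and 27.8% in WT and 38.3, 37.1, 30.6, 34.3 and 35.1% in rsCBE, against 35.1% of the public list. All WT samples were below the public value, with differences of -19.1 to -7.29 percentage points. Those of the rsCBE samples ran from -4.50 to 3.22. The pooled difference of -6.42 percentage points (adjusted exact permutation p = 0.0417) mixes these values, and its mean of 28.7% lies within the public interval of 28.6 to 42.2%. It no longer passed under 5 of 8 other settings or when any of 7 samples was left out singly.

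**Figure D4:**
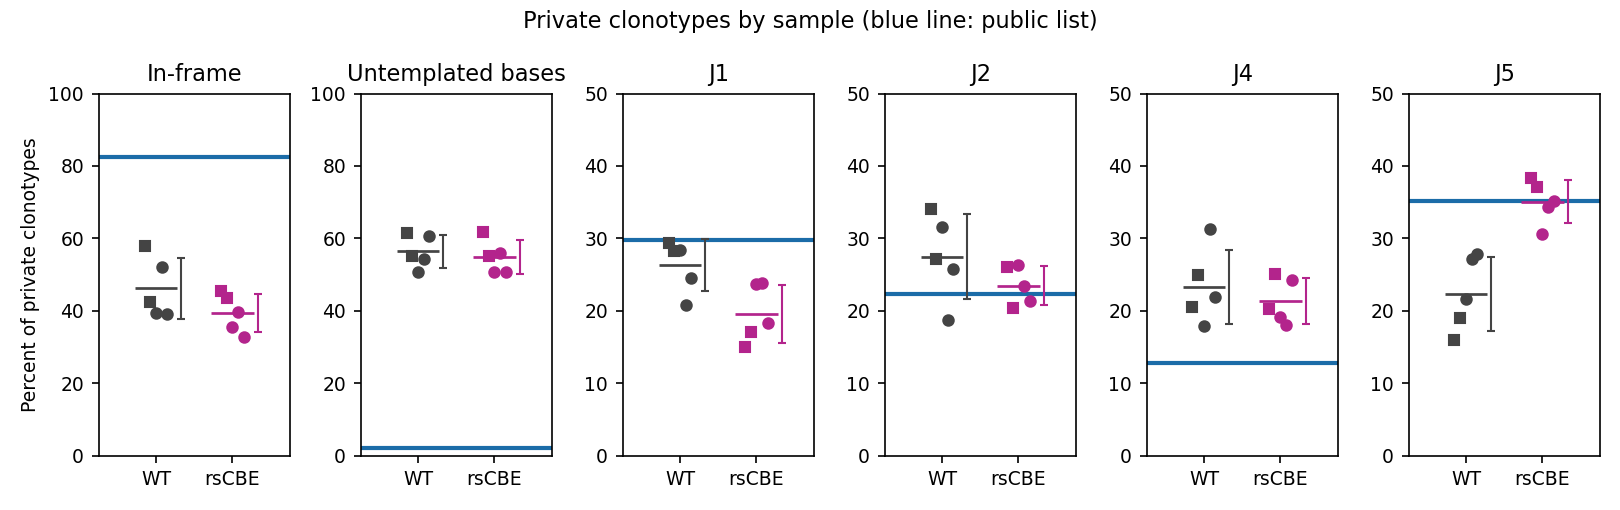
Percent of private clonotypes that are in frame, have untemplated bases, or use J1, J2, J4 or J5, by sample for WT and rsCBE, with the mean (thin line) and SD (bar) of 5 samples; squares are batch 1, circles batch 2, and the blue line is the value of the public list. For J5 the 5 WT samples lie below all rsCBE samples.

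The genotypes were then compared within each class. Private J5 usage averaged 22.3% ± 5.12 in WT against 35.1% ± 2.96 in rsCBE (n = 5 per genotype, SD). It was 12.8 percentage points higher in rsCBE (two-sided exact permutation p = 0.00794, the smallest that 5 against 5 allow, adjusted p 0.0317). The groups did not overlap. The difference was 20.2 percentage points in batch 1 and 7.86 in batch 2. With replicate numbers as a block it did not pass (adjusted exact permutation p = 0.25), where 5 pairs allow no unadjusted p below 0.0625, nor with labels exchanged only within batches (adjusted exact permutation p = 0.0667), nor without rsCBE replicate 1 or 2 (adjusted exact permutation p = 0.0635). Nor did it pass thinned to 3109 counts or with part a only (13.9 and 10.5, adjusted exact permutation p = 0.0635 in both), or with private counts of 5 or more (11.0, adjusted exact permutation p = 0.635). In the public class J5 took 24.5, 26.4, 25.8, 36.1 and 28.4% of public counts in WT and 37.6, 39.8, 37.3, 36.3 and 38.3% in rsCBE. These groups did not overlap either, though WT replicate 4 lay just below the lowest rsCBE sample. The difference was 9.62 percentage points (exact permutation adjusted p 0.0317), and 13.2 and 7.21 within batches 1 and 2. Its adjusted exact permutation p was 0.125 with the replicate block and 0.0667 with labels exchanged within batches. It was 0.0635 without any 1 of the rsCBE samples and 0.190 with part b only.

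J1 went the other way in both classes without passing. Private J1 usage averaged 26.3% ± 3.58 in WT against 19.6% ± 3.98 in rsCBE (n = 5 per genotype, SD; adjusted exact permutation p = 0.0635). The public J1 share of counts was 35.9% ± 4.97 and 30.5% ± 4.39 (n = 5 per genotype, SD; adjusted exact permutation p = 0.169). The private in-frame share was 46.2% ± 8.43 in WT against 39.3% ± 5.31 in rsCBE (n = 5 per genotype, SD; exact permutation p = 0.183). The in-frame share of public counts was 89.6% ± 3.35 and 88.1% ± 1.65 (n = 5 per genotype, SD; exact permutation p = 0.413). Without WT replicate 1 the private in-frame difference went from -6.87 to -3.93 percentage points and the public one from -1.49 to -0.317. Private mean length (exact permutation p = 0.389) and private untemplated share (exact permutation p = 0.651) did not pass.

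Public clonotypes held 34.1, 32.4, 32.0, 43.6 and 34.3% of counts in WT and 31.6, 30.0, 31.6, 31.0 and 30.1% in rsCBE. All WT samples were above all rsCBE samples, and WT replicate 4 stood well above the rest. The mean difference, rsCBE minus WT, was -4.40 percentage points, and -2.45 in batch 1 and -5.70 in batch 2. Presence and counts in these samples made the public list, so this share is given as a description with no test. The rule asks for presence in every sample, and WT replicate 4 was the shallowest. Of the 246 clonotypes in 9 samples, 194 lacked only that sample. The difference shrank to -2.33 percentage points when WT replicate 4 was left out, and to -2.07 when all samples were thinned to 3109 counts. Private clonotypes made up 11.5% ± 2.07 of the clonotypes with a count of 2 or more in WT and 12.4% ± 2.41 in rsCBE (n = 5 per genotype, SD), also a description. They took 1.93 to 3.03% of counts in batch 1 and 5.56 to 7.37% in batch 2.

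Levels of single public clonotypes showed no call between genotypes. By edgeR's quasi-likelihood test over the whole table, 0 of the 155 public clonotypes that passed the filter on low counts were called, as were 0 (0%) of all 263 tested. The other 33 public clonotypes were too low to be tested. At an unadjusted p under 0.05 there were 8 public clonotypes (5.16%), against 14 (5.32%) of all tested. With a batch term in edgeR these were 21 (13.5%) against 28 (10.6%), and with the replicate block 17 (11.0%) against 24 (9.13%). With TMM scaling they were 10 (6.45%) against 16 (6.08%). After adjustment these settings called 0 public clonotypes. DESeq2 called 0 public clonotypes and 2 (0.76%) of all, with 17 (11.2%) against 25 (9.62%) at an unadjusted p under 0.05.

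The leading Igkv8-16 join with J5 took 0.171, 0.262, 0.601, 1.35 and 1.20% of counts in WT and 0.349, 0.386, 1.79, 1.70 and 1.66% in rsCBE. It was low in both samples of batch 1 and high in batch 2 in either genotype. The Igkv8-27 join with J5 took 0.545, 0.659, 0.550, 0.354 and 0.579% in WT and 0.914, 0.803, 0.854, 0.590 and 0.798% in rsCBE, where only the lowest rsCBE sample fell within the WT range. The Igkv9-120 join with J1 took 0.944, 0.743, 0.767, 0.515 and 0.655% in WT and 0.610, 0.532, 0.389, 0.309 and 0.369% in rsCBE, with overlap in rsCBE replicates 1 and 2.

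The 3 public clonotypes with the smallest p did not pass. They are shown with the J part in capitals.

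Igkv15-103 with J1: caacagggtcaaagttatccGTGGACG
Igkv5-39 with J2: caaaatggtcacagctttccGTACACG
Igkv10-94 with J1: cagcagtatagtaagcttcctcGGACG

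The Igkv15-103 join had a log2 fold change, rsCBE over WT, of -2.46 ± 0.70 (SE, edgeR adjusted p 0.346). It took 1.05, 0.117, 0.130, 0.161 and 0.153% of counts in WT and 0.104, 0.0987, 0.0164, 0.0211 and 0.0515% in rsCBE, so that WT replicate 1 was several times the next sample. The Igkv5-39 join with J2 was likewise high in WT replicate 1, at 2.65% against 0.131 to 0.341% in the other WT samples (log2 fold change -1.98 ± 0.70, SE, edgeR adjusted p 0.568). The Igkv10-94 join had a log2 fold change of -1.74 ± 0.62 (SE, edgeR adjusted p 0.568). Left out in turn, WT replicate 1 gave the smallest changes for the Igkv15-103 (-1.20) and Igkv5-39 (-0.43) joins.

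Grouped by J, the medians of the public log2 fold changes differed by segment, with members on both sides of 0 in each group, a description with no test. Of the tested public clonotypes with J1, 41 of 47 were below 0 (median -0.42), with J2 29 of 35 (median -0.40) and with J4 15 of 21 (median -0.24). With J5, 34 of 52 were above 0 (median 0.29). Over all 263 tested clonotypes, 60 of 74 with J1 were below 0 (median -0.32) and 69 of 90 with J5 above 0 (median 0.45). With J2, 38 of 51 were below 0 (median -0.23), and with J4 30 of 48 (median -0.11). TMM scaling moved the median of all tested clonotypes from -0.09 to 0.01, and the public medians became -0.31 for J1, -0.27 for J2, -0.15 for J4 and 0.40 for J5. The public medians kept these signs within each batch. With J5, 44 of 48 were above 0 in batch 1 and 28 of 49 in batch 2. With J4, 11 of 19 were below 0 in batch 1 (median -0.02) and 9 of 15 in batch 2.

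**Figure D5:**
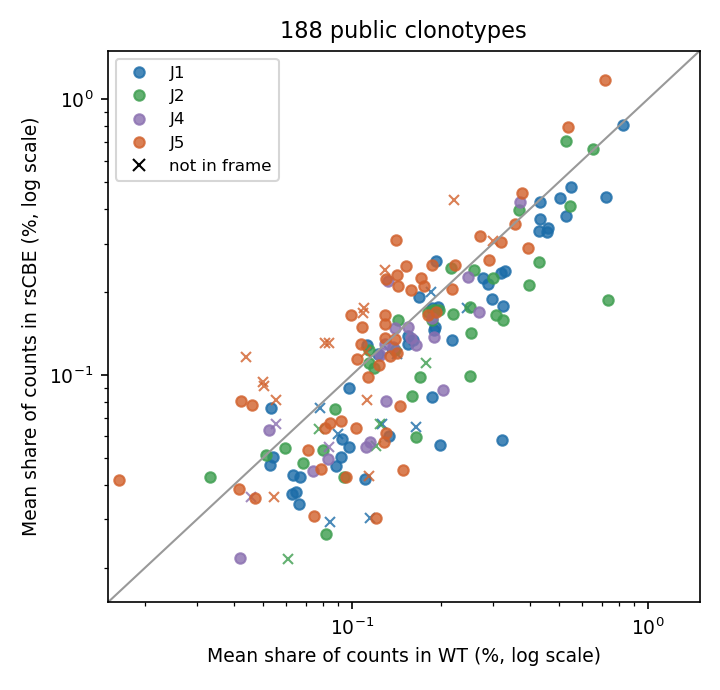
Mean share of counts (percent, log scale) of each of the 188 public clonotypes in 5 WT samples (horizontal) and 5 rsCBE samples (vertical), coloured by J segment, with crosses for clonotypes out of frame; the grey line marks equal shares. J1 points lie mostly below the line, where 51 of the 56 have the higher mean in WT, and 36 of 66 J5 points lie above it. Only 7 of 42 J2 and 6 of 24 J4 points lie above it. Public clonotypes as a whole held more of the counts in WT, most of all in WT replicate 4.

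V usage of the classes was tested for the 90 V segments with 10 or more public and private clonotypes together. Of these, 29 had 0 public clonotypes and so could only come out higher in the private class. They are given as a description, although 21 of them are among the 41 (45.6%) at an adjusted exact sign-flip p under 0.05. Of the 61 with a public clonotype, 17 were lower (27.9%) and 3 higher (4.92%) in the private class. These p-values were adjusted over all 90. Adjusted over the 61 alone, 17 were lower and 2 higher. Only 6, all lower in the private class, had a private mean outside the public list's own Wilson interval. With public clonotypes taken as those in 9 or more samples, 4 of 74 V segments with a public clonotype passed. Left out singly, the samples gave 14 to 20 such segments, fewest without rsCBE replicate 5.

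Igkv8-16 (chromosome 6, 70386672 to 70387252, reverse strand, 335 kb from J1) led the public list with 16 clonotypes (8.51%, Wilson 95% interval 5.31 to 13.4%), of which 9 were in frame and which joined J1, J2, J4 and J5. Its private share was 3.58% ± 2.31 (SD, n = 10), lower in 10 of 10 samples (adjusted exact permutation p = 0.0135). The private share of Igkv8-16 was 1.3% in batch 1 and 5.11% in batch 2, and it took 4.42 and 18.6% of public counts. Igkv1-135 (10 public, 5.32% against 2.10% ± 1.70 private), Igkv19-93 (9, 4.79% against 2.28% ± 1.35), Igkv5-43 (8, 4.26% against 1.41% ± 1.27) and Igkv9-120 (6, 3.19% against 1.21% ± 0.813) were also lower in 10 of 10 samples at the same adjusted p. These means also mix the batches. In batch 1 only 0.315% of private clonotypes used Igkv1-135, against 3.29% in batch 2, and its part of the public counts was 2.08 and 10.1%. The private shares of the other three were higher in batch 1, at 3.38 against 1.54% for Igkv19-93, 2.44 against 0.727% for Igkv5-43 and 1.88 against 0.766% for Igkv9-120. The sixth was Igkv8-28, named after its values were seen (4 public, 2.13% against 0.790% ± 0.612). Near-identical V segments may exchange counts through their V calls.

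Igkv6-20 (22 private clonotypes, 1.16% ± 0.709), Igkv4-72 (26, 1.16% ± 0.643), Igkv4-56 (20, 1.08% ± 0.801) and Igkv13-84 (21, 1.03% ± 0.822) had 0 public clonotypes, a description with no test. A list of 188 allows up to 1.60% for a count of 0, and all 4 means lie below that. Igkv4-91 had 1 public and 28 private clonotypes (1.58% ± 1.03, SD, n = 10), and that mean lies within the public interval.

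Of 114 V segments, 62 had a public and 110 a private clonotype. The public clonotypes fell on 128 V-J pairs and the private ones on 416. By family, Igkv8 held 37 public clonotypes (19.7%) against 13.5% ± 1.65 of the private class and 15.6% of all clonotypes. Igkv4, the largest family, held 27 (14.4%) against 27.2% ± 5.56 and 19.3%. Segments numbered 46 to 90, in the middle of the locus, held 31 public clonotypes (16.5%) against 30.1% ± 5.11 of the private class and 23.5% of all, higher in the private class in 10 of 10 samples. Pseudogenes, by the annotation, held 2 public clonotypes (1.06%) and 131 private ones (6.59% ± 2.03 per sample, SD, n = 10), against 4.04% of all clonotypes. Segments annotated on the reverse strand, which join by inversion, held 57.4% of the public list, 61.4% ± 4.35 of the private class and 59.0% of all clonotypes.

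V usage within the private class showed no call between genotypes. By edgeR's quasi-likelihood test, 0 of 110 V segments (0%) passed, with 3 at an unadjusted p under 0.05, and DESeq2 called 0, with 5 at an unadjusted p under 0.05. The numbers per V were low, and 0 of 110 passed the usual filter on low counts, so no filter was used.

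Some private clonotypes resembled a more abundant one of the same sample. In 183 of 2098 (8.72%) the CDR3 was 1 mismatch from a clonotype with at least 5 times its count, from 1.98% in rsCBE replicate 5 to 17.2% in WT replicate 1. Their part in the results was measured by leaving them out, an alternative chosen after seeing the data. The private in-frame share was then 31.8 to 50.0% over the samples and the untemplated share 46.8 to 60.0%, and the private J5 share stayed at 15.2 to 28.8% in WT and 30.3 to 37.2% in rsCBE. In batch 2, 59.2 to 68.8% of a sample's private clonotypes were seen in both of its parts. At the edge of the rule, 1238 private clonotypes (59.0%) had a count of exactly 2 and 282 had 5 or more. Public clonotypes had a total count of 35 to 1266, and those in 9 samples 19 to 714.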

How the data were processed

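Per the labels' protocols, RNA of small pre-B cells was sequenced as Igk amplicons in 151-bp paired-end MiSeq reads. The count values are whole numbers per V, J, CDR3 and library as deposited by the authors, with no normalization. The build mm10 is given per the submitters' processing notes. The V(D)J caller, germline set, read filters and any use of molecular identifiers are not given in the sources used here, so intervals and limits for a count of 0 cover counting error only. Of 49079 lines, 49 duplicates were merged.

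Parts a and b of a replicate were added, which gave 10 samples of 3109 to 24083 counts. The members and lists were chosen with earlier results of these data known. Germline ends came from GENCODE M21 transcripts (GRCm38), for 111 of 114 V segments and for J1, J2, J4 and J5. A sample's private value minus the value of the fixed public list was tested by a two-sided exact sign-flip permutation test over 10 samples. Genotype differences (5 against 5 samples) were tested by exact permutation, two-sided. Benjamini-Hochberg adjustment ran over J1, J2, J4 and J5, or over the V segments tested, at 0.05. Clonotypes and private V numbers were tested with edgeR 4.0.16 (quasi-likelihood, library size as total, factors of 1, filterByExpr) in R 4.3.3, with DESeq2 1.42.0 as an alternative. filterByExpr kept 0 of 110 private V segments, so that test ran without a filter, against the plan. The code was tested on simulated data, in Python 3.11.15 with scipy 1.17.1.

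Named items were the 10 public clonotypes with the highest mean share, the highest private clonotype of each sample (that of rsCBE replicate 4 is not reported here), the 5 V segments with the largest called difference each way, the 3 public clonotypes with the smallest p, the J segments, and V families and position classes. Correlations of same-numbered samples of the genotypes over the 188 public clonotypes were 0.578, 0.668, 0.302, 0.115 and 0.237, all over 0.1. The number was taken to pair them. In numbers 1 to 3 the WT sample correlated best with its own number. In numbers 4 and 5 it correlated best with another sample, and its own number gave the lowest value within the batch. Correlations with the other batch were at most -0.248. No label states a pairing, so the replicate block rests on the number alone. V counts of no 2 samples of a genotype agreed within counting noise (chi-square per degree of freedom at least 2.39).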

Additional observations from a re-analysis of the deposited data

Results flagged for a closer look

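The public share of counts in WT replicate 4 was 43.6%, and the 4 remaining WT samples ran from 32.0 to 34.3%. It stood far from the others of its group, which is a description with no test, since the counts of these samples made the public list. Of 28 groups of values looked at in this way 1 was flagged, where 1.4 were expected at a rate of 1 in 20. WT replicate 4 was the shallowest sample, and the public rule needs presence in it. Without it, the genotype difference in this share was -2.33 percentage points in place of -4.40.

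The difference in J5 share between private clonotypes and the public list differed between the genotypes by 12.8 percentage points (two-sided exact permutation p = 0.00794, adjusted p 0.0317). It did not pass with the replicate block (adjusted exact permutation p = 0.25) or with labels exchanged within batches (adjusted exact permutation p = 0.0667). Nor did it pass when thinned or with part a only. Because the public list is the same for every sample, this is the same number as the genotype difference in the private J5 share, and not a separate result. The WT differences ran from -19.1 to -7.29 and the rsCBE differences from -4.50 to 3.22 percentage points.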

How the results depend on the processing

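The in-frame and untemplated contrasts between private and public clonotypes kept their direction and passed in all alternatives run, from -45.6 (thinned) to -23.2 (private counts of 5 or more) and from 39.7 (palindromic bases allowed) to 62.4 (private counts of 5 or more) percentage points. Values below are percentage points unless named. Without 1 sample at a time, the ranges were -7.49 to -5.00 for J5 private minus public, 11.2 to 14.2 for private J5 between genotypes, 8.68 to 11.6 for public J5, -8.07 to -5.56 for private J1, -0.834 to 0.227 for public J4, -3.32 to 0.0182 for private J4 and 18 to 37 for the number of V segments called, which was 41 with all samples and 19 with those without a public clonotype left out (chosen after seeing the data). Private J1 passed without WT replicate 4 (adjusted exact permutation p = 0.0476) and public J2 without WT replicate 3 (-4.75, adjusted exact permutation p = 0.0317), public J5 lost its call without any 1 rsCBE sample, and private J5 without rsCBE replicate 1 or 2. The V number fell by over 1.5 times without WT replicate 3 (26), rsCBE replicate 4 (27) or rsCBE replicate 5 (18).

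The following no longer passed. With public clonotypes in 9 or more samples it was J5 private minus public (-4.72), and 5 V segments were called. With private counts of 5 or more (282 clonotypes) these were private J5 (11.0), mean length (-0.605 nucleotides) and J5 (-10.3), J1 (-11.8) and J4 (6.64) private minus public, and 3 of 6 tested V segments were called. Thinned to 3109 counts they were private J5 (13.9), mean length (-0.0219 nucleotides) and J5 private minus public (-4.95). With part a only it was private J5 (10.5), and with part b only public J5 (10.1) and J5 private minus public (-7.88). With the other weight of a clonotype it was mean length (-0.323 nucleotides), and with the list over the 9 deeper samples J5 private minus public (-4.82). Private J1 came to pass with part b only (-8.58) and with the other weight (-6.42). J2 private minus public came to pass with public clonotypes in 9 or more samples (6.35), with the list over the 9 deeper samples (6.37) and with near neighbours left out (3.74).

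Values that did not pass and changed sign were the private share of clonotypes (-1.75 with private counts of 5 or more, -3.42 thinned, -0.774 with part a only, -0.749 with the other weight), private J4 (6.53 with private counts of 5 or more), public J4 (0.112 with part a only, 0.102 with the 9 deeper samples), private untemplated bases between genotypes (2.29 with part b only) and, with part a only, J2 private minus public (-0.783). The public share of counts, a description, was -4.80 with part b only, -4.44 with the other weight and -2.54 with the list over the 9 deeper samples. That list adds only clonotypes absent from WT replicate 4, so the share of WT replicate 4 cannot change.

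With the replicate block the values stayed at 9.62 for public J5 and 12.8 for private J5, neither of which passed, since 5 pairs allow no exact p below 0.0625, and at -4.40 for the public share. It changed no other call. With labels exchanged within batches, 9.62 for public J5 and 12.8 for private J5 did not pass. The cause of these changes was not tested. Depth limits the classes: a clonotype can be missed in the shallowest sample and a private one can be present unseen elsewhere.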
